A study of Homo sapiens with 8 samples.

Results

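The hnRNP and SR splicing factor genes were followed across a NAT10 knockdown in 2 human colorectal cancer (CRC) cell lines. A gene was taken as a member when its symbol began with HNRNP or consisted of SRSF and a number. Of 17309 genes with counts, 34 met this rule, 23 of them HNRNP genes and 11 SRSF genes, and no pseudogene did. Of these 34, 32 passed the filter on low counts, and HNRNPCL2 and HNRNPCL4, at 0 to 2 reads per library, did not. RNA-seq was performed in SW480 and DLD-1 cells, both established CRC lines, after infection with an shControl or an shNAT10 lentivirus. This gave the groups SW480 shControl, SW480 shNAT10, DLD-1 shControl and DLD-1 shNAT10, with 2 libraries each and 8 in all. All 4 groups carried a hairpin virus, and the shControl cells are given as WT and the shNAT10 cells as NAT10 knockdown. Replicates are given as biological, without saying what was repeated, and whether the infected cells were a pool or a clone is not stated in the sources used here. HNRNPH3 and HNRNPA2B1 are also candidate NAT10 targets of the study, so their values were set beside those of the other members. The study chose them from genes that its own RNA-seq calls had as lower after NAT10 knockdown. Binding by NAT10, RNA acetylation peaks and correlation with NAT10 in public tumor data were its other grounds. It names no test for those calls and reports more genes than the 17309 here, so its unit may differ.

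The hnRNPs are nuclear RNA-binding proteins that coat nascent transcripts, and many of them repress the use of exons near their binding sites. SR proteins carry RNA recognition motifs and a domain rich in serine and arginine, bind exonic enhancers and mostly promote exon inclusion, so that both families together set many splice choices. Many members also tune their own transcripts through exons that lead to nonsense-mediated decay. NAT10 is an acetyltransferase that places N4-acetylcytidine (ac4C) on RNA, a mark known for its link to mRNA stability. The question put to these genes was whether their mRNA levels moved when NAT10 was lowered, and whether the candidates HNRNPH3 and HNRNPA2B1 did what the family did.

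The NAT10 targets of the study's hairpins are shown first because they define the knockdown. The labels do not say which of them was sequenced. Each of the 19-base targets below is written with all letters in lower case and was found in 3 annotated NAT10 transcripts.
shNAT10-1: ggccaaagctgtcttgaaa
shNAT10-2: cagtgacgacctagatgaa
On GRCh38, the first spanned the junction of coding exons 8 and 9 of 29 of ENST00000257829.7 (plus strand, chr11:34118503-34118503 and chr11:34122459-34122476), and the second that of coding exons 26 and 27 (chr11:34141805-34141817 and chr11:34142275-34142280). In the coding transcripts of the 34 members, the longest uninterrupted match to shNAT10-1 was 10 bases, in HNRNPDL. To shNAT10-2 it was 9 bases, in HNRNPU, SRSF11 and SRSF2. None of the members therefore held a whole target.

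HNRNPA2B1 encodes the hnRNPs A2 and B1, which differ by a single small exon. This exon is shown because the counts of HNRNPA2B1 were divided between both forms. It is exon 2 of 12 of ENST00000354667.8, lies at chr7:26197831-26197866 on the minus strand of GRCh38, has 36 bases, is wholly coding, and is missing from the A2 transcript ENST00000356674.7.
HNRNPA2B1 B1 exon: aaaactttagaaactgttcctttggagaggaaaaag
The qRT-PCR primers of the study for both candidates show which forms such an assay reads.
HNRNPH3 forward primer: aatggtccaaatgacgctagtg
HNRNPH3 reverse primer: ctcccctggtagtccatcgt
HNRNPA2B1 forward primer: attgatgggagagtagttgagcc
HNRNPA2B1 reverse primer: aattccgccaacaaacagctt
The HNRNPH3 pair lay in coding exons 2 and 3 of 10 (chr10:68337243-68337264 and chr10:68337890-68337909, plus strand) and framed 143 bases in 2 of 2 annotated coding transcripts. The HNRNPA2B1 pair lay in coding exons 4 and 5 of 12 (chr7:26197337-26197359 and chr7:26196961-26196981, minus strand) and framed 102 bases in 4 of 4, so it does not separate A2 from B1.

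The libraries held 15147805 to 17271336 counts over genes, of which members took 1.047% to 1.147% in SW480 and 1.21% to 1.27% in DLD-1. Levels are given below as CPM, counts scaled to the TMM-normalized library total. NAT10 itself went from 122 and 122 CPM with the control virus to 23.6 and 27.9 with shNAT10 in SW480, and from 121 and 120 to 59.0 and 54.4 in DLD-1, so each library had the NAT10 level its label calls for. All 7 colorectal epithelial markers were expressed, with EPCAM at 131 to 656 and KRT8 at 1560 to 3850 CPM, while of the 2 leukocyte, 4 fibroblast and 3 endothelial markers listed 1 each reached 1 CPM, namely CD14 (0.586 to 1.17 CPM), COL1A1 (0.117 to 2.29) and VWF (0.46 to 1.58). Summed, these lists stood at 0.586 to 1.18 CPM, 0.117 to 2.29 and 0.587 to 1.64, and none of their genes was at 0 in all libraries. PTPRC, the other of 3 leukocyte markers looked for, was not found by symbol among the genes and is in no sum. The library labelled SW480 shNAT10 replicate 1 stood apart from its partner. The chi-square between both libraries was 9.78 per gene there against 3.31 to 4.59 in the other groups, and its levels rose with the GC content of a gene by 0.10 on the log2 scale per 10% GC. Members had a median GC content of 42.2% against 49.4% over all tested genes. Of the 32 tested members, 28 were higher in SW480 shNAT10 replicate 2 than in replicate 1, with a median difference of 0.10 on the log2 scale and of 0.00 over all tested genes. Results in SW480 are therefore given with and without this library, and the part of GC content in them was not tested beyond an added GC correction.

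By the mean level per length, the tested members ran from HNRNPA1 down to SRSF8, an order that mixes both cell lines. FPKM, which divides by transcript length, was used to order the genes, over the 7 libraries with complete FPKM values (SW480 shNAT10 replicate 2 was left out). HNRNPA1, a general exon repressor that shuttles between nucleus and cytoplasm, led with a mean of 561 FPKM and a range of 478 to 630. HNRNPA2B1 followed with 541 (496 to 577), and these ranges overlapped because the order turned with the cell line. In shControl, HNRNPA1 had a mean of 621 against 561 for HNRNPA2B1 in DLD-1, but 495.5 against 556 in SW480. After knockdown it was 610 against 522 in DLD-1, and 478 against 508 in the SW480 library. HNRNPK, which binds C-rich RNA, came next at 328 (312 to 343), a range that met neither that of HNRNPA2B1 nor that of the gene after it. This was HNRNPC, which binds U-rich tracts and keeps cryptic exons out, at 280 (269 to 288), and its range overlapped that of HNRNPAB at 251 (217 to 280). The SR gene with the highest mean was SRSF2, eighth in order at 197 FPKM (137 to 247). It was followed by SRSF5 at 181 (165 to 196) and SRSF7 at 178 (143 to 200). The order of SRSF2 and SRSF5 turned with the cell line. In shControl, SRSF2 had a mean of 219 against 169 for SRSF5 in DLD-1, but 142 against 195 in SW480. SRSF5 also led in the SW480 shNAT10 library, at 191 against 164. SRSF1, the founding SR protein, reached 69.7 (63.3 to 75.4), and HNRNPH3, which was 23rd of the members, 63.3 (57.3 to 67.9). By this mean the lowest of the tested members were HNRNPA1L2 at 15.4 FPKM, HNRNPA0 at 13.1 and SRSF8 at 10.5. HNRNPA1L2 is a near copy of HNRNPA1, so its counts depend on how shared reads were divided.

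**Figure D1:**
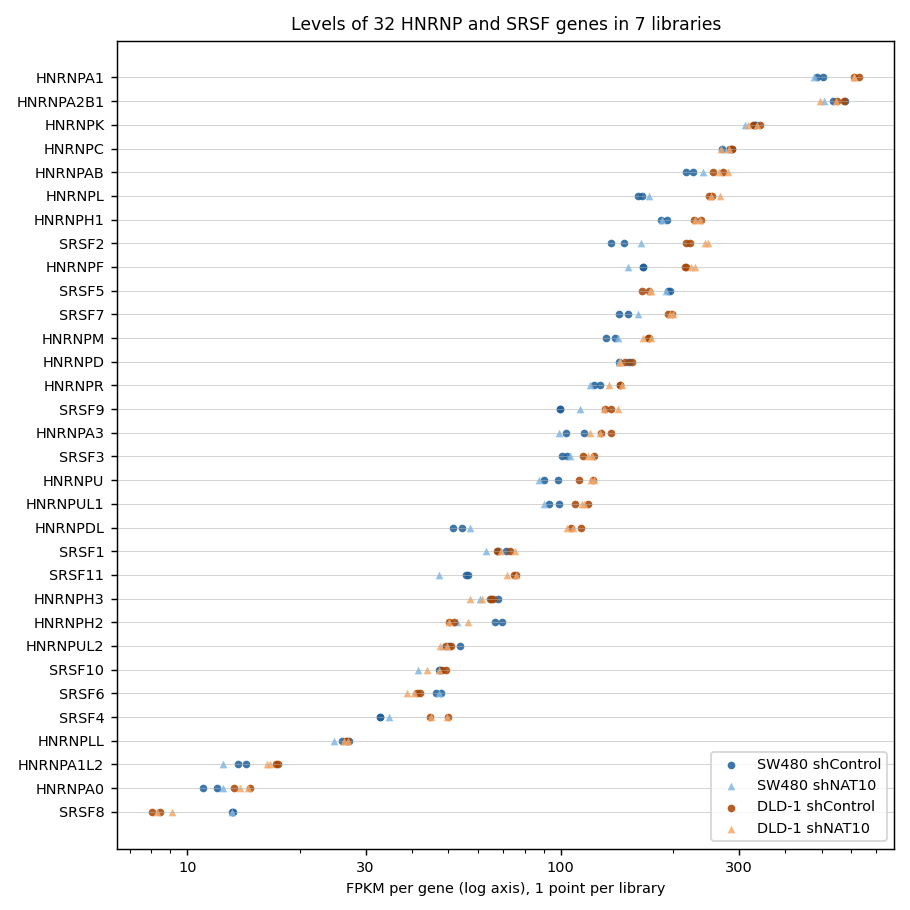
Levels of the 32 tested members as FPKM per gene (log axis), with 1 point for each of the 7 libraries with complete values, blue for SW480, brown for DLD-1, circles for shControl and triangles for shNAT10. The genes run from HNRNPA1 at a mean of 561 down to SRSF8 at 10.5, and in the HNRNPDL row the cell lines separate. In that row the single SW480 shNAT10 point (57.0) lies above both SW480 shControl points (51.4 and 54.2), and the DLD-1 hairpins overlap.

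In SW480 cells, no member rose or fell past an adjusted p of 0.05 when NAT10 was knocked down. The members with the smallest p were HNRNPDL, SRSF9 and HNRNPAB, each with a higher level in shNAT10. HNRNPDL, a paralogue of the mRNA decay factor HNRNPD (AUF1), was at 198 and 207 CPM in the controls and at 224 and 256 after knockdown. Both knockdown libraries lay above both control libraries, but replicate 2 lay further above than replicate 1. The log2 fold change was 0.24 (SE 0.07) with an adjusted p of 0.11 by edgeR's quasi-likelihood test, which serves for all adjusted p-values here unless another tool is named. SRSF9, a small SR protein, went from 87.0 and 86.1 to 101 and 97.3 CPM, a log2 fold change of 0.19 (SE 0.07, adjusted p = 0.16). HNRNPAB, which binds both RNA and promoter DNA, went from 313 and 322 to 355 and 356 CPM, a log2 fold change of 0.16 (SE 0.06, adjusted p = 0.18). In each of these genes the groups did not overlap. In bulk libraries, fewer cells expressing a gene and less RNA per cell cannot be told apart.

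Across the family in SW480, 0 of 32 members were called, against 1.68% of all tested genes (229 of 13619, 106 of them higher and 123 lower). Over all tested genes, 2622 of 13619 had an unadjusted p under 0.05, 1183 of them higher and 1439 lower. These background numbers were not taken for the alternatives below, so member counts there have none beside them. Among the members 6 had an unadjusted p under 0.05, all with higher levels, adding HNRNPM, SRSF2 and SRSF7 to the genes above. This count changed with the processing, to 15 higher with the added GC correction and 10 higher with the length correction, to 4 higher and 3 lower without SW480 shNAT10 replicate 2, and to 2 higher and 4 lower by limma on log2(FPKM + 0.1) over 7 libraries. It was 3, all higher, without SW480 shControl replicate 1. DESeq2 called 1 member, HNRNPDL (0.25, SE 0.08, adjusted p = 0.0498), against 2.23% of all tested genes. It also had 6 members at an unadjusted p under 0.05. Over all alternatives the adjusted p of HNRNPDL ran from 0.011 to 0.47. The limits used by the study (a fold change above 1.2 or below 0.83 with an unadjusted p under 0.05) picked 0 members, against 9.08% of all tested genes. They were put on the gene-level fit used here, which is not the study's own. The shNAT10 and shControl libraries did not overlap for 14 members (43.8%), all higher in shNAT10, against 47.9% of all tested genes in either direction. The share of all tested genes in each direction alone was not taken. The median log2 fold change was 0.01 over the HNRNP genes, 0.08 over the SRSF genes and -0.01 over all tested genes. The 95% interval left out a fall to 0.83-fold for 30 of 32 members, the others being HNRNPH2 and SRSF11, and a rise to 1.2-fold for 23. These intervals use a spread estimated over all 4 groups. They are not set by the wider gap between the SW480 shNAT10 libraries alone.

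These SW480 values turned on the library that stood apart. Since 28 of 32 members were lower in SW480 shNAT10 replicate 1 than in replicate 2, leaving replicate 1 out by itself raises most members. Without SW480 shNAT10 replicate 1, 32 of 32 members had a log2 fold change above 0, with a median of 0.09, and HNRNPDL was at 0.35. Without replicate 2 instead, 16 were above and 16 below 0, with a median of 0.00. HNRNPH2 was then at -0.33, SRSF11 at -0.26, SRSF2 at 0.22 and HNRNPDL at 0.14. Each of these fits leaves a single library in SW480 shNAT10, so a call in them would rest on the spread of the other groups. Effect sizes alone are therefore given. With an added correction for GC content, HNRNPDL was called at 0.30 (SE 0.06, adjusted p = 0.014) and the median over members was 0.12, against 0.01 over all tested genes.

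In DLD-1 cells, where NAT10 stayed at 47.0% of control, again no member rose or fell past an adjusted p of 0.05. SRSF2, which acts in both constitutive splicing and exon definition, had the smallest p. It was at 374 and 385 CPM in shControl and 420 and 418 in shNAT10, with no overlap, a log2 fold change of 0.14 (SE 0.07) and an adjusted p of 0.83. HNRNPH3 went from 136 and 138 to 119 and 128 CPM, at -0.15 (SE 0.07, adjusted p = 0.86). HNRNPA3, an A/B-type hnRNP, went from 642 and 661 to 579 and 609 CPM, at -0.13 (SE 0.07, adjusted p = 0.88). Both were lower in each shNAT10 library than in each control library.

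Across the family in DLD-1, 0 of 32 members were called, against 0.0147% of all tested genes, which was 2 genes, NAT10 included. Of all 13619 tested genes, 812 had an unadjusted p under 0.05, a number that was not taken for the alternatives. SRSF2 was the single member with an unadjusted p under 0.05, also by DESeq2, which called 0 members, and over the alternatives 0 to 4 members were below that value, 0 of them with any 1 DLD-1 library left out. At the limits of the study 0 members passed, against 2.68% of all tested genes. The groups did not overlap for 13 members (40.6%), 2 higher and 11 lower in shNAT10, against 36.0% of all tested genes in either direction. The share of all tested genes in each direction alone was not taken. The 11 lower members were HNRNPH3, HNRNPA2B1, HNRNPA3, HNRNPA1, HNRNPA1L2, HNRNPC, HNRNPD, HNRNPLL, HNRNPUL2, SRSF6 and SRSF10. The median log2 fold change was -0.05 over the HNRNP genes, 0.00 over the SRSF genes and 0.00 over all tested genes. A fall to 0.83-fold lay outside the 95% interval for 27 of 32 members and a rise to 1.2-fold for 30. The interval held the fall for both candidates, HNRNPH3 and HNRNPA2B1, and for HNRNPA3, HNRNPA1L2 and SRSF10. It held the rise for SRSF2 and HNRNPH2.

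**Figure D2:**
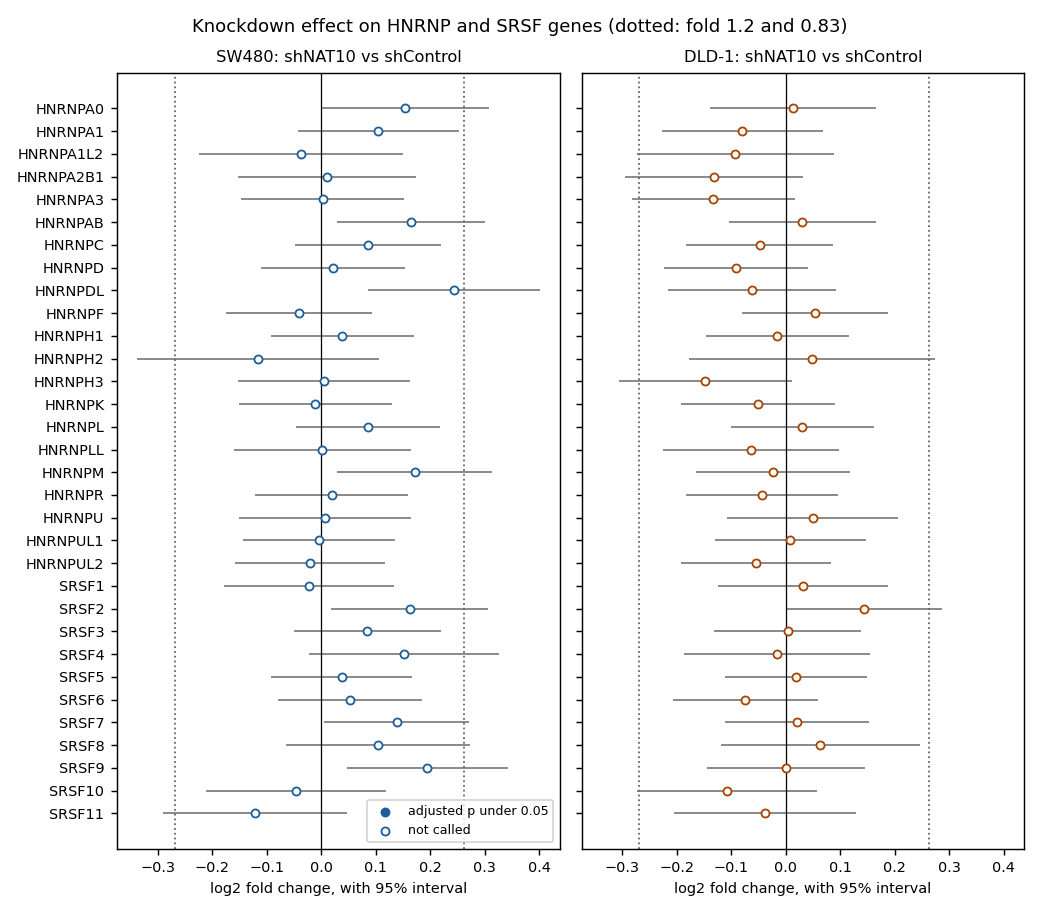
Log2 fold change of each tested member in shNAT10 against shControl, in SW480 (left, blue) and DLD-1 (right, brown), with its 95% interval as a bar. Open points are members with an adjusted p of 0.05 or more, which is all 32 in both lines, and the dotted lines mark 1.2-fold and 0.83-fold.

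Over both cell lines together, with each line set against its own control, no member was called, against 1.02% of all tested genes (139 of 13619). SRSF2 was nearest, with a log2 fold change of 0.15 (SE 0.05, adjusted p = 0.15). It was higher in 4 of 4 knockdown libraries than in the controls of its line, which in SW480 were 254 and 234 CPM against 285 and 262. Without SW480 shNAT10 replicate 2, SRSF2 was at 0.18, and without replicate 1 it was at 0.13. Over all alternatives its adjusted p ran from 0.025 to 0.53. HNRNPAB (0.10, SE 0.04) and SRSF9 (0.10, SE 0.05) came next, with adjusted p-values of 0.34 and 0.37. Over all tested genes, 1970 of 13619 had an unadjusted p under 0.05 for this mean, a number that was not taken for the alternatives. Of the 32 members, 2 did, and DESeq2 likewise called 0 with 2 at an unadjusted p under 0.05. This number was 9, all higher, with the GC correction, 2 higher and 6 lower without SW480 shNAT10 replicate 2, 5, all higher, without replicate 1, and 1 higher and 5 lower by limma on FPKM. The 95% interval of the mean effect left out both a fall to 0.83-fold and a rise to 1.2-fold for all 32 tested members. These intervals hold for the 8 libraries as a whole and pool SW480 and DLD-1.

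The knockdown effect was also compared between the cell lines directly. No member differed at an adjusted p under 0.05, against 0.00734% of all tested genes, which was NAT10 alone. HNRNPDL had the largest difference, with an effect higher in SW480 by 0.31 on the log2 scale (SE 0.10, adjusted p = 0.48). In DLD-1 its levels were 440 and 411 CPM in shControl and 401 and 415 in shNAT10, so those groups overlapped. HNRNPM, a repressor of exons near GU-rich sites, followed at 0.20 (SE 0.09, adjusted p = 0.54), with 283 and 295 CPM in SW480 shControl and 310 and 342 in shNAT10, and with 371 and 373 against 375 and 358 in DLD-1. SRSF9 differed by 0.19 (SE 0.10, adjusted p = 0.54), and was at 121 and 117 CPM in the DLD-1 controls and 123 and 115 after knockdown. Of all 13619 tested genes, 1278 had an unadjusted p under 0.05 for this difference, a number that was not taken for the alternatives. Among the members HNRNPDL alone did, while DESeq2 called 0 members with 2 below that value. The number below it was 10 with the GC correction, 7 with the length correction and 7 without SW480 shNAT10 replicate 1, all with a higher effect in SW480. It was 2 in each direction without SW480 shNAT10 replicate 2, and 3, all with a lower effect in SW480, by limma on FPKM.

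The candidate HNRNPH3 belongs to the H/F group, whose members bind runs of G. Its gene lies at chr10:68331693-68343196. In SW480 it was at 136 and 141 CPM in shControl and at 130 and 148 in shNAT10, so the knockdown libraries lay on both sides of the controls. The log2 fold change was 0.00 (SE 0.07, 95% interval -0.15 to 0.16, adjusted p = 0.99), the 12th from the lowest of 32 members. Without SW480 shNAT10 replicate 1 it was 0.11 (SE 0.07), and without replicate 2 it was -0.09 (SE 0.07), neither of them called. In DLD-1 its -0.15 was the lowest of all 32 members, with a 95% interval of -0.31 to 0.01, and it was -0.0983 without DLD-1 shNAT10 replicate 1 and -0.198 without replicate 2. Between the lines the effect differed by 0.15 (SE 0.10, adjusted p = 0.65). Over both lines the mean effect was -0.07 (SE 0.05, 95% interval -0.18 to 0.04, adjusted p = 0.57), the third from the lowest. That mean was -0.0193 without SW480 shNAT10 replicate 1, -0.121 without SW480 shNAT10 replicate 2, -0.0467 without DLD-1 shNAT10 replicate 1, -0.0017 with the GC correction and -0.133 by limma on log2(FPKM + 0.1).

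The paralogues of HNRNPH3 had values of their own. HNRNPH1 was at 359 and 370 CPM in the SW480 controls against 369 and 380 after knockdown, and at 442 and 459 against 438 and 454 in DLD-1. Its groups overlapped within each line, at 0.04 (SE 0.06) in SW480 and -0.02 (SE 0.06) in DLD-1. HNRNPH2, an X-linked gene, was at 141 and 134 CPM in the SW480 controls against 110 and 144 after knockdown, and at 106 and 102 against 101 and 114 in DLD-1. It gave -0.12 (SE 0.10) in SW480, where its shNAT10 libraries lay far apart, and 0.05 (SE 0.11) in DLD-1. The spread behind both standard errors was estimated over all 4 groups. HNRNPF was at 395 and 393 CPM in SW480 shControl against 368 and 397 in shNAT10, and at 519 and 519 against 531 and 546 in DLD-1. It was the H/F member with both DLD-1 knockdown libraries above the controls, at 0.05 (SE 0.06). Adjusted p-values for these paralogues ranged from 0.57 to 1 in both lines.

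The candidate HNRNPA2B1 is an A/B-type hnRNP at chr7:26189927-26200746 that also acts in mRNA transport. In SW480 it was at 1137 and 1173 CPM in shControl and at 1085 and 1243 in shNAT10, with the knockdown libraries again on both sides of the controls. The log2 fold change was 0.01 (SE 0.08, 95% interval -0.15 to 0.17, adjusted p = 0.96), the 14th from the lowest of 32. It was 0.11 (SE 0.08) without SW480 shNAT10 replicate 1 and -0.09 (SE 0.08) without replicate 2, neither of them called. In DLD-1 it went from 1209 and 1203 to 1050 and 1151 CPM, without overlap, at -0.13 (SE 0.08, 95% interval -0.30 to 0.03, adjusted p = 0.90), the third from the lowest. It was -0.0675 without DLD-1 shNAT10 replicate 1 and -0.199 without replicate 2. The effect differed between the lines by 0.14 (SE 0.11, adjusted p = 0.67). Over both lines the mean effect was -0.06 (SE 0.05, 95% interval -0.18 to 0.06, adjusted p = 0.64), the 6th from the lowest. That mean was -0.0073 without SW480 shNAT10 replicate 1, -0.111 without SW480 shNAT10 replicate 2, -0.0282 and -0.0938 without DLD-1 shNAT10 replicates 1 and 2, 0.0177 with the GC correction and -0.119 by limma on FPKM.

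Among its paralogues, HNRNPA1 was at 1208 and 1220 CPM in SW480 shControl against 1241 and 1371 in shNAT10, and at 1536 and 1492 against 1409 and 1455 in DLD-1. The groups did not overlap in either line, and lay in opposite order, at 0.11 (SE 0.07, adjusted p = 0.43) in SW480 and -0.08 (SE 0.07, adjusted p = 0.93) in DLD-1. HNRNPA3, the gene between both candidates in the DLD-1 order, was at 478 and 505 CPM in SW480 shControl against 465 and 520 in shNAT10, a log2 fold change of 0.00 (SE 0.07). HNRNPA0 was at 93.1 and 100 CPM in SW480 shControl against 107 and 108 in shNAT10, at 0.15 (SE 0.07, adjusted p = 0.26). In DLD-1 it was at 113 and 124 against 122 and 117, at 0.01 (SE 0.07). With all 8 libraries and no correction, neither a candidate nor a paralogue of one was called in either line, while the added length correction called HNRNPA0 in SW480 (0.29, SE 0.06, adjusted p = 0.018).

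**Figure D3:**
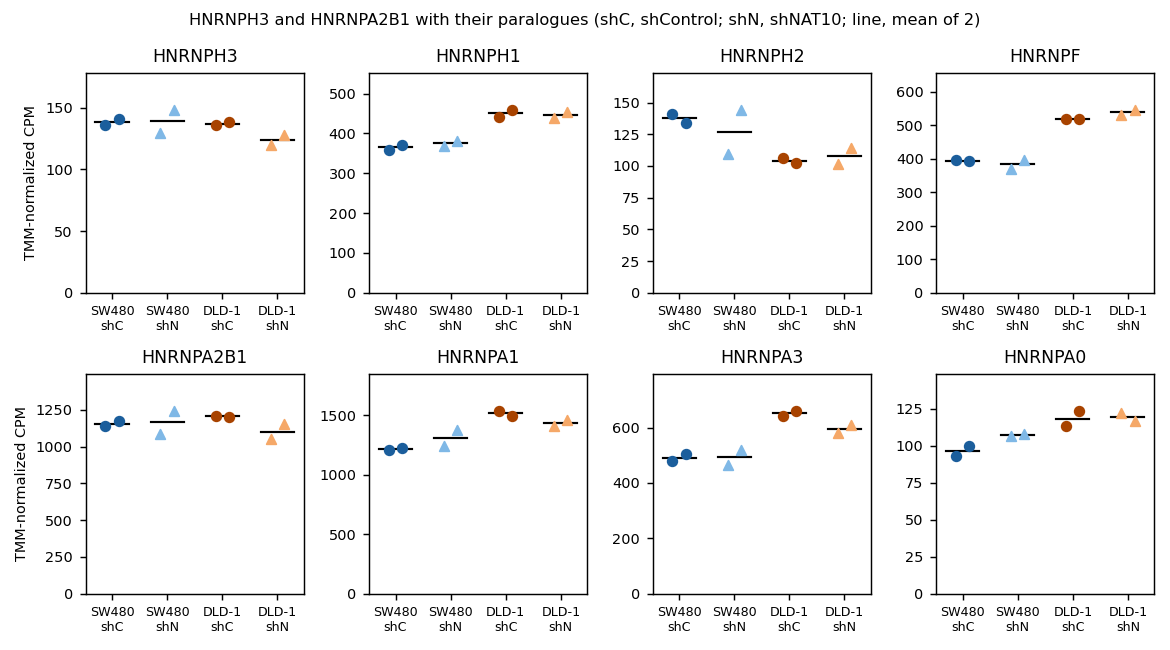
TMM-normalized CPM of HNRNPH3 and its paralogues HNRNPH1, HNRNPH2 and HNRNPF (top) and of HNRNPA2B1 and its paralogues HNRNPA1, HNRNPA3 and HNRNPA0 (bottom), 2 libraries per group with their mean as a line and each axis starting at 0. In DLD-1 the shNAT10 points of HNRNPH3, HNRNPA2B1, HNRNPA3 and HNRNPA1 lie below both control points, and in SW480 those of both candidates lie on either side of the controls.

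Below the gene level, the counts of HNRNPA2B1 were divided among 5 RefSeq transcripts, which are described here without a test. The B1 transcript NM_031243.3 holds the 36-base exon shown above. It received 1325 and 3628 estimated reads in the DLD-1 controls against 1.06 and 10.7 after knockdown. In SW480 it received 4626 and 3699 against 3324 and 3208, so that the groups did not overlap in either line. The share of all transcripts whose groups do not overlap was not taken, here or for the transcript values below. Over all tested genes that share was 47.9% in SW480 and 36.0% in DLD-1. The predicted transcript XM_005249729.1 received 1190 and 0 reads in the DLD-1 controls against 1520 and 1557 after knockdown, so it was at 0 in the DLD-1 library where B1 was highest. In SW480 it received 2603 and 3361 against 2615 and 3528. The A2 transcript NM_002137.4 took 48.7% and 32.5% of the gene in the DLD-1 controls against 52.2% and 50.8% after knockdown, and 28.4% and 29.1% against 32.4% and 31.3% in SW480.

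The replicates of DLD-1 shControl thus differed in A2 by 16.2 percentage points. Because the division moved between replicates, the sum of NM_031243.3 and XM_005249729.1 was also taken, a choice made after the values were seen. This sum was 12.2% and 17.9% of the gene in the DLD-1 controls against 8.5% and 8.9% after knockdown, and 37.3% and 35.2% against 32.2% and 31.7% in SW480. It was lower in each knockdown library than in the controls of its line, with 2 libraries a group and no count of reads over the B1 exon itself. The predicted transcript XM_017012110.2 took 38.1% and 48.8% of the gene in the DLD-1 controls against 38.4% and 39.3% after knockdown, and 34.0% to 36.8% in SW480. Which exons XM_005249729.1 and XM_017012110.2 hold was not checked here, so the share of NM_031243.3 is not the share of all transcripts with the B1 exon.

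**Figure D4:**
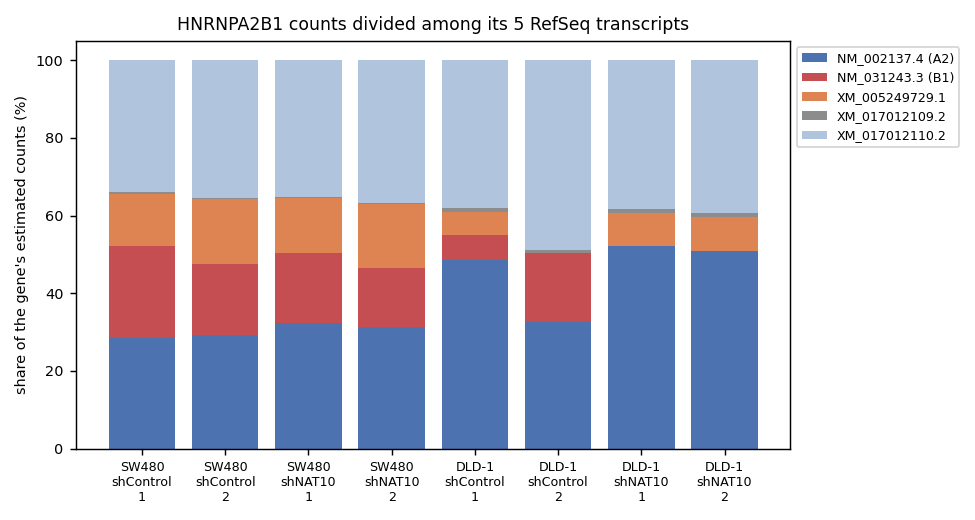
Share of the estimated counts of HNRNPA2B1 given to each of its 5 RefSeq transcripts, in percent, with 1 stacked bar per library. The share of the B1 transcript NM_031243.3 (red) is 6.44% and 17.9% in the DLD-1 controls and 0.01% and 0.06% after knockdown, against 15.1% to 23.8% in SW480, and the DLD-1 shControl bars differ from each other.

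HNRNPH3 had 19 transcripts, and most of its counts went to 3 of them. NM_021644.3 took 32.01% and 53.2% in the DLD-1 controls, which is the widest gap between replicates of any member at 21.2 percentage points, and 34.4% and 37.2% after knockdown. NM_012207.2 took 10.4% and 10.9% in the SW480 controls against 17.2% and 19.2% after knockdown, and 16.8% and 0% against 19.1% and 13.4% in DLD-1. Its share was higher in both SW480 knockdown libraries, by less than the gap between the DLD-1 controls. Over the 27 members with several transcripts, the widest replicate gap had a median of 5.28 points. The sequence CUUCUCCAG, which the study proposes as the ac4C motif of another gene, was searched for on the sense strand of the longest annotated coding transcript. This exact sequence was in 0 of 32 members and in 5.6% of 13460 tested genes with such a transcript. The study's general ac4C motif, CXXCXXCXX, was not searched for. The presence or absence of CUUCUCCAG alone says nothing about acetylation of the members.

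In the control cells, most members differed between the cell lines, and HNRNPH3 and HNRNPA2B1 were among those that were not called. Of 32 members, 23 were called between SW480 shControl and DLD-1 shControl, which is 71.9% against a background of 73.8% of all tested genes. Their direction was uneven, with 19 lower in SW480 (59.4%, background 35.6%) and 4 higher (12.5%, background 38.1%). The lists of other splicing genes described below leaned the same way. Calls lower and higher in SW480 were 13 and 2 of 21 SR-related proteins and 6 and 2 of 11 hnRNPs under other symbols. They were 17 and 10 of 37 core spliceosome genes, 8 and 4 of 18 other regulators, 7 and 4 of 15 decay and junction genes, and 5 and 3 of 9 kinases and import factors. The median log2 fold change was -0.28 over members and 0.01 over all tested genes. Summed over the members, the level was 10618 and 10792 CPM in SW480 against 12579 and 12605 in DLD-1. These control libraries are the same ones that the knockdown libraries were set against.

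HNRNPDL was the member with the largest difference, at 198 and 207 CPM in SW480 against 440 and 411 in DLD-1, a log2 fold change of -1.07 (SE 0.07, adjusted p = 6.51e-09). HNRNPL, which binds CA repeats, was at 270 and 263 CPM against 413 and 421, at -0.64 (SE 0.06, adjusted p = 2.72e-07). Among the SR genes, SRSF2 was at 254 and 234 CPM against 374 and 385, at -0.64 (SE 0.07, adjusted p = 7.48e-07). SRSF4 was at 66.3 and 65.5 CPM against 102 and 90.4, and SRSF9 at 87.0 and 86.1 against 121 and 117. SRSF11 was at 215 and 216 CPM against 294 and 296. These fell by 0.54, 0.46 and 0.45 on the log2 scale in SW480, with adjusted p-values of 2.54e-05, 2.77e-05 and 0.000113. HNRNPA3 (-0.41) and HNRNPF (-0.40) were also lower in SW480, with adjusted p-values of 0.000106 and 4.43e-05. In all 8 of these genes the control groups did not overlap.

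The called members that went the other way were SRSF8, HNRNPH2, SRSF5 and SRSF6. SRSF8 was at 53.9 and 53.0 CPM in SW480 against 33.0 and 34.3 in DLD-1, a log2 fold change of 0.67 (SE 0.08, adjusted p = 3.92e-06). SRSF5 was at 244 and 241 CPM against 209 and 218, and SRSF6 at 195 and 187 against 169 and 170, again without overlap. HNRNPH2 was higher by 0.40 (SE 0.10, adjusted p = 0.0031), SRSF5 by 0.18 (SE 0.06, adjusted p = 0.013) and SRSF6 by 0.17 (SE 0.06, adjusted p = 0.022). The calls of SRSF5 and SRSF6 were lost with some libraries left out, with adjusted p-values up to 0.099 without DLD-1 shControl replicate 1 for SRSF5 and up to 0.16 without SW480 shControl replicate 1 for SRSF6. SRSF8 arose as a copy of SRSF2, so their counts depend on how shared reads were divided. SRSF2 and SRSF8 stood in opposite order in these lines, and so did HNRNPH2 against HNRNPH1 and HNRNPF. The remaining 9 tested members were not called. HNRNPH3 differed by 0.02 (SE 0.07, 95% interval -0.14 to 0.18, adjusted p = 0.85) and HNRNPA2B1 by -0.06 (SE 0.08, 95% interval -0.23 to 0.10, adjusted p = 0.48). Their paralogues HNRNPH1, HNRNPH2, HNRNPF, HNRNPA1, HNRNPA3 and HNRNPA0 were all called.

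**Figure D5:**
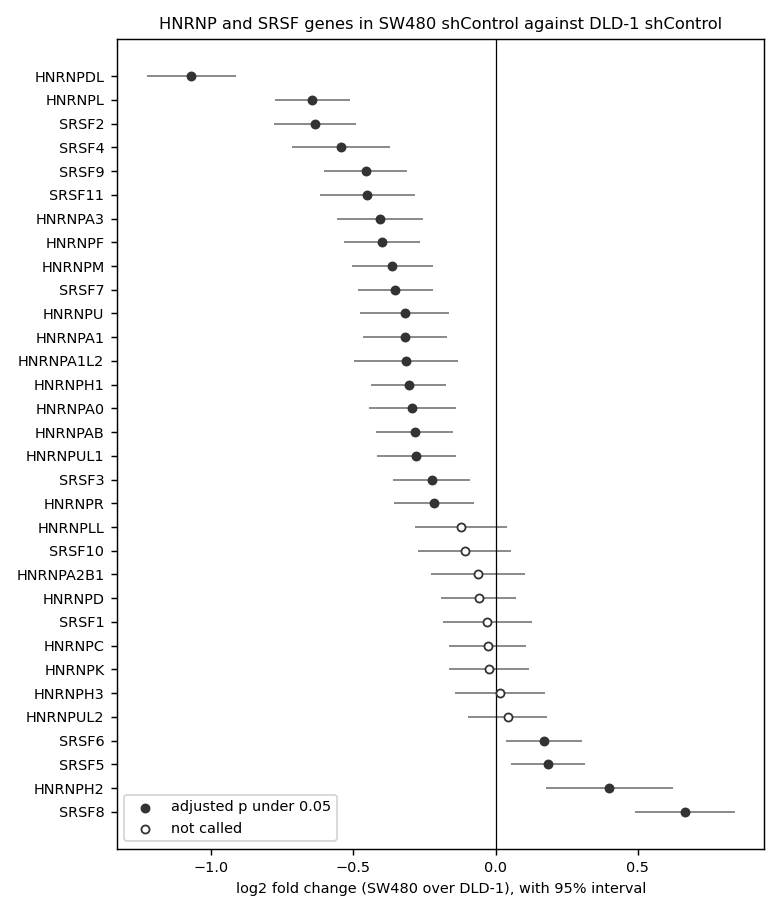
Log2 fold change of each tested member in SW480 shControl against DLD-1 shControl, ordered by size, with its 95% interval as a bar and filled points for an adjusted p under 0.05. The filled points number 19 on the left of 0, led by HNRNPDL at -1.07, and 4 on the right, led by SRSF8 at 0.67.

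Other genes of the splicing machinery were described by lists drawn up from general knowledge. Of 11 tested genes for hnRNPs under other symbols, 0 were called higher and 1 lower in SW480 shNAT10. This was PTBP3, a polypyrimidine tract-binding repressor, at 137 and 135 CPM in shControl and 111 and 112 in shNAT10 (-0.28, SE 0.06, adjusted p = 0.035). Of 18 other splicing regulators, 0 were called higher and 1 lower, MBNL2, a muscleblind-type regulator, which went from 137 and 141 to 106 and 112 CPM (-0.36, SE 0.07, adjusted p = 0.019). Of 37 core snRNP and spliceosome genes, 2 were called higher and 0 lower. SF3B2, a part of the U2 snRNP, went from 320 and 324 to 421 and 393 CPM (0.34, SE 0.07, adjusted p = 0.029). PRPF19, the scaffold of an activating complex of the spliceosome, went from 215 and 213 to 265 and 252 CPM (0.27, SE 0.06, adjusted p = 0.042). In each of these 4 genes the groups did not overlap. Their direction held in every alternative, but none of the 4 stayed called without SW480 shControl replicate 1, SW480 shControl replicate 2 or SW480 shNAT10 replicate 1. With these libraries left out in turn, adjusted p-values were 0.2007, 0.3155 and 0.1446 for PTBP3, 0.1276, 0.288 and 0.09005 for MBNL2, 0.1926, 0.288 and 0.1265 for SF3B2, and 0.2024, 0.3944 and 0.1633 for PRPF19. All 4 also lost the call with no filter (adjusted p from 0.0614 to 0.09), with SW480 fitted alone (0.0995 to 0.182) and by limma on log2(FPKM + 0.1) (0.0561 to 0.0781). PTBP3 was not called with the GC (-0.15, adjusted p = 0.16) or the length correction (-0.16, adjusted p = 0.17), and MBNL2 shrank to -0.23 with the GC correction, where it stayed called (adjusted p = 0.046).

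No gene was called in SW480 among 9 SR protein kinases and import factors, 21 SR-related proteins or 15 genes of nonsense-mediated decay and the exon junction complex, of which 3, 4 and 4 had an unadjusted p under 0.05. In DLD-1 none of the 6 lists had a called gene, and between 0 and 4 genes a list had an unadjusted p under 0.05. Over all 13619 tested genes, 2622 were below that value in SW480 and 812 in DLD-1. Over both lines, MBNL2 (-0.29, SE 0.05, adjusted p = 0.0091) and PRPF19 (0.21, SE 0.04, adjusted p = 0.036) were called, with adjusted p-values over all alternatives of 0.00026 to 0.10 and 0.0037 to 0.27. Leaving out any 1 library other than those of SW480 shNAT10 ended the call of PRPF19, and the same held for MBNL2 except without DLD-1 shControl replicate 2. List medians in SW480 ran from -0.02 for the genes of nonsense-mediated decay to 0.10 for the core spliceosome genes, beside 0.03 over the members and -0.01 over all tested genes.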

How the data were processed

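RNA of SW480 and DLD-1 cells was purified with oligo(dT) beads and sequenced by BGI as single-end 50-base reads. The submitters' processing notes name HISAT2 2.0.4, Bowtie2 2.2.5, RSEM 1.2.12 and hg38, without giving their roles. The authors deposited estimated counts per RefSeq transcript, not normalized, which were summed per gene and rounded, since shared reads are divided among transcripts. The authors also deposited FPKM per library. In SW480 shNAT10 replicate 2, 18.6% of 78953 transcripts had no FPKM, 39 of 219 member transcripts among them, so FPKM were used for 7 libraries only. Symbols were matched for 99.3% of gene identifiers, and SRSF12, HNRNPCL1, HNRNPCL3 and HNRNPA1L3 were not analysed here.

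Groups were taken from the labels (cell line and virus). Gene totals were filtered with filterByExpr (minimum count 10, minimum total 15; 13619 genes), scaled by TMM and compared with edgeR 4.0.16 (glmQLFit, glmQLFTest, two-sided; R 4.3.3) in 1 model of all 4 groups, with Benjamini-Hochberg adjustment over all tested genes. Standard errors were derived from each log2 fold change and its F statistic. The biological coefficient of variation was 0.0585. The fit was tested on simulated data. Alternatives used DESeq2 1.42.0, limma 3.58.1 on log2(FPKM + 1) and log2(FPKM + 0.1), upper-quartile normalization, other filters, each line alone, a replicate block, each library left out, and, added after the data were seen, GC and length corrections (loess, span 0.5) on 98.8% of tested genes. With 2 libraries a group, p-values rest on the spread between libraries of the same group, which may be technical. In the main model this spread was estimated over all 4 groups together, so no p-value measures the spread of the compared libraries alone. A group cut to 1 library adds nothing to that estimate. Library strand is not given in the sources used here, so genes that overlap others, such as SRSF2 and SRSF9, are uncertain to that extent.

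The members and lists were chosen with earlier results of these data known. Full values are given for both candidates, their paralogues, up to 10 called members per comparison or the 3 with the smallest p, and up to 2 called genes a direction of each other list. Members named beyond this, such as SRSF5 and SRSF6, were chosen after their values were seen. Sequences came from the study's primer and hairpin list and GENCODE v29 (GRCh38). Gene coordinates came from RefSeq (GRCh38).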

Additional observations from a re-analysis of the deposited data

Results flagged for a closer look

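The effect of shNAT10 on NAT10 itself differed between the cell lines. Its log2 fold change was -2.25 (SE 0.09) in SW480 and -1.09 (SE 0.08) in DLD-1, a difference of -1.16 (SE 0.12, adjusted p = 0.0015 by edgeR's interaction test). NAT10 was lower in 4 of 4 knockdown libraries than in the controls of their line, at 21.0% of control in SW480 and 47.0% in DLD-1, so the knockdown comparisons of the members rest on unequal knockdown. Without DLD-1 shNAT10 replicate 1 the difference was -1.10 with an adjusted p of 0.073.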

How the results depend on the processing

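With 2 libraries a group and a median standard error of 0.0679 (SW480) and 0.0669 (DLD-1) on the log2 scale, changes under about 1.2-fold in 1 line could often not be told from none. In SW480 the count of called members, 0, was 1 by DESeq2, 2 with the replicate block, 1 with the GC correction and 2 with the length correction, and ran from 0 to 3 with 1 library left out. HNRNPDL was called by all of the first 4. SRSF9 was added by the block (0.19, adjusted p = 0.046) and HNRNPA0 by the length correction (0.29, adjusted p = 0.018). For the mean over both lines the count, 0, was 1 (SRSF2) with the replicate block and with the length correction. Of all tested genes, 5.04% and 2.98% were called there. For the difference between lines it was 1 (HNRNPDL) at the study's limits. In DLD-1 it stayed at 0 in each alternative run, and between the control lines at 19 to 24 beside 23. Replicate numbers served as names only (deviations of same-numbered libraries correlated at 0.128 in SW480 and 0.036 in DLD-1), and the block moved genes called in SW480 from 229 to 1472. By limma on log2(FPKM + 1) or log2(FPKM + 0.1) without SW480 shNAT10 replicate 2, SW480 log2 fold changes turned negative for HNRNPA1 (-0.0530 and -0.0531), HNRNPA2B1 (-0.13), HNRNPA3 (-0.1355 and -0.1367), HNRNPH1 (-0.0163) and HNRNPH3 (-0.1274 and -0.1292), HNRNPH1 turned to 0.0009 in DLD-1, and the line difference of HNRNPA2B1 to -0.0239. HNRNPH3 turned to -0.0326 in SW480 with the length correction and to -0.0121 between lines with the block, and the mean effect of HNRNPA2B1 to 0.02 with the GC correction. With 1 library left out, SW480 values ran from -0.0892 to 0.114 for HNRNPA2B1, -0.0795 to 0.0898 for HNRNPA3, -0.0958 to 0.0210 for HNRNPF, -0.328 to 0.0783 for HNRNPH2 and -0.0935 to 0.106 for HNRNPH3. DLD-1 values ran from -0.0451 to 0.0782 for HNRNPA0, -0.0418 to 0.0123 for HNRNPH1 and -0.0432 to 0.134 for HNRNPH2, and HNRNPH3 from -0.0093 to 0.0411 between lines. None of the 31 reversed values was called. The cause of the changes was not tested. Of 756 values of named genes under alternatives, 662 kept direction and side of the threshold, 52 lost a call and 11 gained one.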
